A study of Mus musculus with 4 samples.

Results

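The genes described here are the replication-dependent histone genes of the mouse, taken by symbol from the H1f, H2ac, H2bc, H3c and H4c series that name the clustered histone genes. Of 19938 named genes on the array, 27 met that rule with a probe set of their own: 5 for linker histone H1, 4 for H2A, 9 for H2B, 3 for H3 and 6 for H4. A further 26 probe sets were annotated to several histone genes at once and are given apart. RefSeq lists 63 protein-coding genes under these symbols, and the remaining 36 were measured only through shared probe sets. The cells were NIH3T3, an established mouse fibroblast line, of 1 stable clone that carried vectors for doxycycline-repressed (Tet-Off) expression of FLAG-tagged mouse Ctcfl with EGFP. The 2 Ctcfl samples were grown for 48 h without doxycycline, and the 2 control samples with 2 µg/ml of it, so Ctcfl induction and absence of the drug cannot be told apart. Total RNA of each sample was measured on 1 Affymetrix array. Nothing in the labels tells whether the replicates came from different cultures, and the p-values therefore reflect variation between these arrays alone, possibly technical.

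Replication-dependent histone genes supply the histones that package newly copied DNA, and their messenger RNA builds up in S phase and is degraded when DNA synthesis stops. Their transcripts normally end in a conserved stem-loop bound by SLBP, not in a poly(A) tail. The genes have no introns, lie in clusters, and encode proteins that are identical or nearly so within a class, so probes of one gene can also bind the RNA of another. CTCFL (BORIS), the product of Ctcfl, is normally made in the testis and is related to CTCF, a DNA-binding protein of most cells.

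Ctcfl itself was at 10.37 and 10.35 (log2) on the Ctcfl arrays, against 7.77 and 7.71 on the control arrays, as the labels have it. Which stretch of the transcript the probes cover was not examined. The log2 difference was 2.62 (SE 0.08, adjusted p = 5.38e-04 by limma). Ctcf had 9.18 and 9.17 on the Ctcfl arrays, against 9.31 and 9.36 on the control arrays (difference -0.16, adjusted p = 0.537 by limma). Array medians were 5.20 to 5.24 and lower quartiles 4.09 to 4.12. The control values of Ctcfl thus lay above the array medians, and the source of that signal was not tested. Of 12 fibroblast markers, 10 had means from 7.71 to 12.1, while Fap and Lum lay below the lower quartile on every array. The 30 measured markers of epithelial, endothelial, leukocyte, male germ and muscle cells had means from 2.86 to 6.64, and none passed the test. Summed log2 values of the fibroblast list were 107.23 to 107.64 on the Ctcfl arrays, against 108.9 to 109.08 on the control arrays. Those of the epithelial list were 29.78 to 29.97 on the Ctcfl arrays, against 29.21 to 29.63 on the control arrays, and those of the endothelial list were 25.73 to 26.26 on the Ctcfl arrays, against 25.43 to 25.67 on the control arrays. Of the fibroblast markers 9 had lower and 3 higher means, with the largest differences for Pdgfrb (-0.56), Col3a1 (-0.38) and Pdgfra (-0.29). Of the epithelial markers 3 had lower and 3 higher means. Krt8 had 0.575, and the other epithelial markers lay between -0.185 and 0.075, so that sum rested on Krt8. Of the endothelial markers 2 had lower and 4 higher means. The part of these lists in the histone values was not tested. The leukocyte list summed to 24.9 to 25.08 on the Ctcfl arrays, against 25.08 to 25.16 on the control arrays, while the male germ cell and muscle lists overlapped. In bulk RNA, fewer cells in S phase and less histone RNA per cell cannot be told apart.

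Most of the histone genes had lower values in the Ctcfl arrays. The mean was lower for 24 of the 27, against 48.6% of all genes, and higher for 3, and the median log2 difference, Ctcfl minus control, was -0.19, against 0.00 over all genes. For 19 of the 27, both Ctcfl arrays lay below both control arrays, while 20.6% of all genes did so. For 1 gene, H2bc21, both lay above, as for 20.6% of all genes, and for 7 the groups overlapped. In all, 20 of the 27 did not overlap, against 41.1% of all genes. The differences were small and no member passed the test across all genes by limma (adjusted p at most 0.05), which called 0.0451% of all genes. The smallest adjusted p among the members was 0.169. At an unadjusted p under 0.05 there were 6 members, all lower, where 5.32% of all genes were lower and 5.36% higher at that level: H1f2, H4c3, H2bc8, H3c15, H2bc3 and H4c9. With an intensity trend and robust variances limma called 3 of the 27, H1f2, H4c3 and H2bc3, all lower, against 1.3% of all genes called lower and 2.4% called in either direction.

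Both Ctcfl arrays showed the lower values. Set against the mean of the control arrays, 24 of the 27 genes were lower on Ctcfl replicate 1, with a median of -0.16, and 22 were lower on Ctcfl replicate 2, with a median of -0.195. The control arrays differed from their own mean by medians of -0.015 and 0.015. With 2 arrays such deviations are equal and opposite by construction, so these medians do not measure the spread of single genes. H3c7, for example, had 3.72 and 4.18 on the control arrays. With any 1 array left out, the median over the 27 genes ran from -0.195 to -0.16. These ends came from leaving out a Ctcfl array and restate the medians of the Ctcfl arrays above. Single genes were less steady: with an array left out, 10 of the 27 differences stayed within 1.5 times their value, 13 moved by more and 4 turned in sign. The 6 genes with an unadjusted p under 0.05 were among the 10. A small p already takes little spread beside the difference on these same arrays, so this is no separate support.

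**Figure D1:**
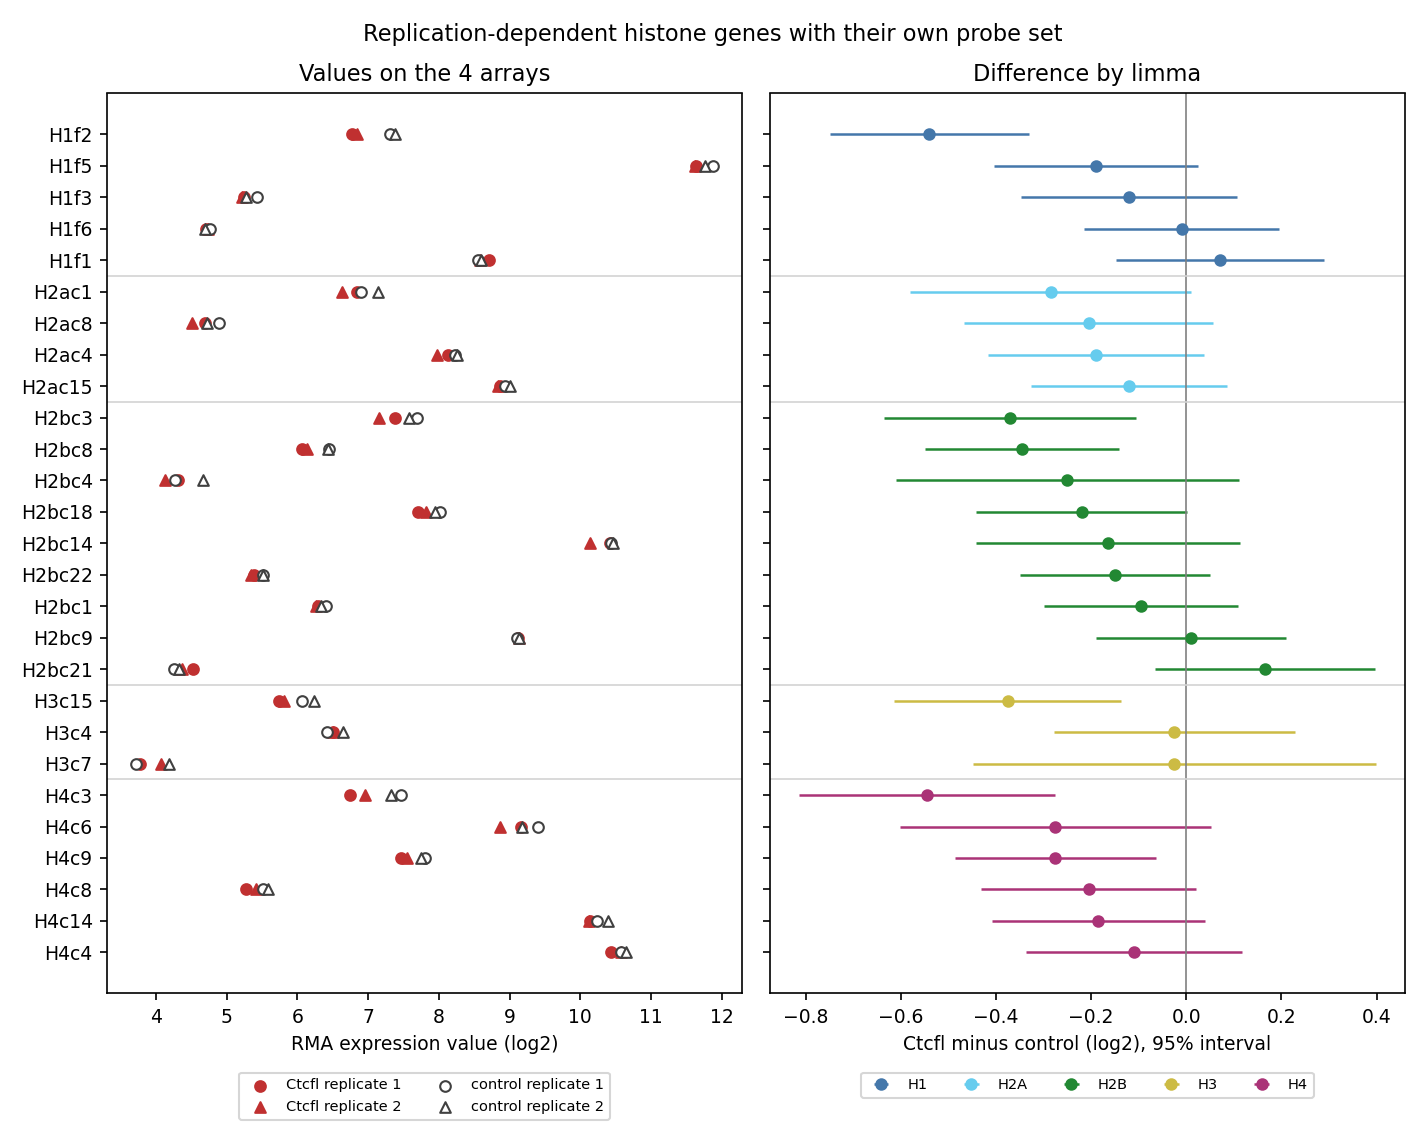
Left, log2 RMA values of the 27 histone genes on the Ctcfl arrays (filled) and the control arrays (open), by histone class. Right, the log2 difference, Ctcfl minus control, with its 95% interval from limma: 24 of 27 points lie below 0, and the intervals of H1f2, H2bc3, H2bc8, H3c15, H4c3 and H4c9 do not reach 0.

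Linker histones H1 bind the DNA between nucleosomes and help to compact chromatin. Of the 5 H1 genes, 4 had lower means, and the class median was -0.12. H1f2, also called H1c, had 6.77 and 6.84 on the Ctcfl arrays, against 7.31 and 7.38 on the control arrays. The groups were far apart relative to the spread within each, and the log2 difference was -0.54 (SE 0.09, 95% interval -0.75 to -0.33), or 1.45-fold lower, with an adjusted p of 0.169 by limma. H1f5, also called H1b, had 11.64 and 11.62 on the Ctcfl arrays, against 11.88 and 11.76 on the control arrays, without overlap (difference -0.19, SE 0.09, adjusted p = 0.506 by limma). H1f3, also called H1d, had 5.24 and 5.22 on the Ctcfl arrays, against 5.43 and 5.27 on the control arrays, so that 1 control array lay close to both Ctcfl arrays. Its difference was -0.12 (SE 0.09), and it was -0.04 without control replicate 1 and -0.2 without control replicate 2. H1f1, also called H1a, had the opposite sign, with 8.71 and 8.58 on the Ctcfl arrays, against 8.56 and 8.59 on the control arrays, and its groups overlapped (difference 0.07, 95% interval -0.15 to 0.29, and 0.005 without Ctcfl replicate 1). The intervals of H1f2 and H1f1 did not overlap, although the difference between these genes was not tested. H1f6, the testis form H1t, had 4.71 and 4.74 on the Ctcfl arrays, against 4.77 and 4.70 on the control arrays, with overlap (difference -0.01, and 0.025 without control replicate 1).

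The promoters of 3 H1 genes are shown because the genes differ most in the class and because 2 of them hold the H1 box, an element known from H1 promoters. Each is the 160 bases before the annotated start, from RefSeq on build GRCm38.p6: H1f2 at chr13:23738647-23738806 on the plus strand, H1f5 at chr13:21780626-21780785 on the minus strand and H1f1 at chr13:23763508-23763667 on the plus strand. Capitals mark matches, on either strand, to the motifs TATAAA (the TATA box), CCAAT, AAACACAA (the H1 box), ATTTGCAT (the octamer) and GGTCCG (an element of H4 promoters).
H1f2: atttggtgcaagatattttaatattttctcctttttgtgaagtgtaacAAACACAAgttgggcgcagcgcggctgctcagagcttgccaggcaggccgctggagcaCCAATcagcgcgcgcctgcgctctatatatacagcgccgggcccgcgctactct
H1f5: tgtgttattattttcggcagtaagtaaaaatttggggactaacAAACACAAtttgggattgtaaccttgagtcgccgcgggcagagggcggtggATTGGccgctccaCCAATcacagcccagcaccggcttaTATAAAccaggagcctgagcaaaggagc
H1f1: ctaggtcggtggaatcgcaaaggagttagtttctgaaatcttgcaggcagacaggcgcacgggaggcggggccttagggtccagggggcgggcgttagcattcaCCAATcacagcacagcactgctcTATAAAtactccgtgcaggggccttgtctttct
H1f2 and H1f5 hold the H1 box 112 and 117 bases before the start, and H1f1 has no match to these letters in the window. All 3 hold CCAAT close to the start. Of the other H1 genes measured, H1f6 (difference -0.01) holds the H1 box 114 bases before its start, and H1f3 (-0.12) has no match to it. These promoters were picked after the values were seen, and a link of the H1 box with the differences was not tested.

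H2A and H2B pair as dimers on the nucleosome. All 4 H2A genes with their own probe set had both Ctcfl arrays below both control arrays, against 20.6% of all genes, with a class median of -0.1975, and none had an unadjusted p under 0.05. H2ac4 had 8.13 and 7.97 on the Ctcfl arrays, against 8.23 and 8.25 on the control arrays (difference -0.19, SE 0.09, adjusted p = 0.521 by limma). H2ac8 had 4.69 and 4.51 on the Ctcfl arrays, against 4.89 and 4.72 on the control arrays, so the nearest pair of arrays differed by little (difference -0.205, SE 0.11). H2ac15 had 8.86 and 8.84 on the Ctcfl arrays, against 8.93 and 9.01 on the control arrays (difference -0.12, SE 0.08). H2ac1, which encodes a testis form of H2A, had 6.84 and 6.63 on the Ctcfl arrays, against 6.90 and 7.14 on the control arrays (difference -0.285, SE 0.12, adjusted p = 0.475 by limma). For H2ac1 the arrays within each group were almost as far apart as the groups. With an array left out, the differences ran from -0.27 to -0.11 for H2ac4, -0.295 to -0.115 for H2ac8 and -0.405 to -0.165 for H2ac1.

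Of the 9 H2B genes, 7 had lower and 2 higher means, and the class median was -0.165. H2bc3 had 7.38 and 7.15 on the Ctcfl arrays, against 7.69 and 7.58 on the control arrays. Its difference was -0.37 (SE 0.11, 95% interval -0.63 to -0.11, adjusted p = 0.373 by limma), 1.29-fold lower. H2bc8 had 6.06 and 6.13 on the Ctcfl arrays, against 6.45 and 6.43 on the control arrays, with little spread in either group (difference -0.345, SE 0.08, adjusted p = 0.312 by limma). H2bc18 had 7.70 and 7.82 on the Ctcfl arrays, against 8.02 and 7.94 on the control arrays, and the groups did not overlap (difference -0.22, SE 0.09). H2bc22 had 5.39 and 5.35 on the Ctcfl arrays, against 5.52 on both control arrays (difference -0.15, SE 0.08). H2bc14 had 10.42 and 10.14 on the Ctcfl arrays, against 10.43 and 10.46 on the control arrays, so its difference of -0.165 lay in Ctcfl replicate 2 and was -0.025 without that array. H2bc9 had 9.12 and 9.13 on the Ctcfl arrays, against 9.10 and 9.13 on the control arrays, and all 4 arrays lay together (difference 0.01, 95% interval -0.19 to 0.21, and -0.02 with median centring of the arrays).

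The 3 H2B promoters below belong to the pair with the smallest p in the class and to H2bc9, whose arrays did not separate. They lie at chr13:23746574-23746733 on the plus strand for H2bc3, chr13:23571240-23571399 on the plus strand for H2bc8 and chr13:23543445-23543604 on the minus strand for H2bc9, with capitals as above.
H2bc3: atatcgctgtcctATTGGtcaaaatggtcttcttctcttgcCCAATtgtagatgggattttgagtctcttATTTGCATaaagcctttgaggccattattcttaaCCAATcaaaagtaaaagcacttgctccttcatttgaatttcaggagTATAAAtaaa
H2bc8: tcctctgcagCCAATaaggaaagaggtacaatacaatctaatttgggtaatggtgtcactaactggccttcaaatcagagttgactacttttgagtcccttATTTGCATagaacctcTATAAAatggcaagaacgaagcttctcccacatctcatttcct
H2bc9: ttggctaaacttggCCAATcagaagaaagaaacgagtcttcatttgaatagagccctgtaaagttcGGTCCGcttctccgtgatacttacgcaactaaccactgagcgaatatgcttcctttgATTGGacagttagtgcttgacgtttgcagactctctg
The octamer, which the factor OCT1 is known to bind in H2B promoters, begins 90 bases before the start of H2bc3 and 59 before that of H2bc8, and its letters are not in the H2bc9 window, which holds GGTCCG 94 bases before the start. Of the 7 H2B genes with a probe set and a promoter in the table, 5 held it, with a median difference of -0.22 (range -0.37 to -0.095), and the other two, H2bc22 and H2bc9, had -0.15 and 0.01. This split was made after the values were seen and was not tested.

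Several H2A and H2B genes lie head to head and share the stretch between their starts, and 2 such pairs had both genes measured. In the pair H2ac8 and H2bc8, whose starts are 178 bases apart, the differences were -0.205 and -0.345. In the testis pair H2ac1 and H2bc1, 279 bases apart, they were -0.285 and -0.095. Both genes of each pair had both Ctcfl arrays below both control arrays, as did 20.6% of all genes.

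Histone H3 carries many of the modifications by which chromatin states are marked. Its 3 genes with their own probe set differed in whether the groups overlapped. H3c15 had 5.74 and 5.81 on the Ctcfl arrays, against 6.06 and 6.24 on the control arrays, with a clear gap between the groups (difference -0.375, SE 0.10, 95% interval -0.61 to -0.14, adjusted p = 0.342 by limma). H3c4 had 6.51 on both Ctcfl arrays, between the 6.42 and 6.65 of the control arrays (difference -0.025, 95% interval -0.28 to 0.23). H3c7 had 3.78 and 4.07 on the Ctcfl arrays, against 3.72 and 4.18 on the control arrays, below the lower quartile on 3 of the 4 arrays, and its difference of -0.025 was far smaller than the spread within either group. The class median of -0.025 therefore rested on genes whose groups overlapped, and it was 0.09 without control replicate 2 and -0.255 without control replicate 1.

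H4, the partner of H3 in the core of the nucleosome, had a class median of -0.24 over 6 genes, and all 6 had lower means. H4c3 had 6.74 and 6.96 on the Ctcfl arrays, against 7.47 and 7.32 on the control arrays. Its difference of -0.545 (SE 0.11, 95% interval -0.81 to -0.28), or 1.46-fold lower, had an adjusted p of 0.258 by limma. H4c9 had 7.46 and 7.55 on the Ctcfl arrays, against 7.81 and 7.75 on the control arrays, again without overlap (difference -0.275, SE 0.09, adjusted p = 0.392 by limma). H4c6 had 9.16 and 8.86 on the Ctcfl arrays, against 9.40 and 9.17 on the control arrays, with a wider spread (difference -0.275, SE 0.13, and -0.125 without Ctcfl replicate 2). H4c8 had 5.27 and 5.41 on the Ctcfl arrays, against 5.51 and 5.58 on the control arrays (difference -0.205, SE 0.09). H4c14 had 10.14 and 10.12 on the Ctcfl arrays, against 10.24 and 10.39 on the control arrays (difference -0.185, SE 0.09). Neither of these overlapped between the groups, but H4c8 had -0.135 without Ctcfl replicate 1 and H4c14 had -0.11 without control replicate 2. H4c4 was the exception in overlap, with 10.43 and 10.57 on the Ctcfl arrays, against 10.57 and 10.65 on the control arrays (difference -0.11, SE 0.09, and -0.04 without Ctcfl replicate 1).

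The H4 promoters are shown because the genes with the largest differences share an element at one position. They lie at chr13:23698459-23698618 on the minus strand for H4c3, chr13:22041363-22041522 on the minus strand for H4c9 and chr13:23551669-23551828 on the minus strand for H4c6.
H4c3: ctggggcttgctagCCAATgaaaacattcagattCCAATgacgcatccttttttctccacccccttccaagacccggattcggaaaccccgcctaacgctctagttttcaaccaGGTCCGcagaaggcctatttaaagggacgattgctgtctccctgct
H4c9: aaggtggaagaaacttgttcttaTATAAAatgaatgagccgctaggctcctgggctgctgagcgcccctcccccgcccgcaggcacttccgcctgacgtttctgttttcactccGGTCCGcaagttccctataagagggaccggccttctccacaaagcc
H4c6: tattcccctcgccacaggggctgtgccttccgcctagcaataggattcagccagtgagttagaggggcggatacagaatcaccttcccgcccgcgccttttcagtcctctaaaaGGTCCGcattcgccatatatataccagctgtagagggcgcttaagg
In each, GGTCCG begins 46 bases before the start. The letters belong to the stretch of H4 promoters that the factor HINFP is known to bind. H4c4, with the smallest difference of the class, holds them 47 bases before its start. All 5 H4 genes with a probe set and a promoter in the table hold these letters, so their presence could not separate the H4 genes.

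Most probe sets annotated to several histone genes list at least 11 genes each and gave a class-wide reading, but some list only 2 genes. All 26 had lower means in the Ctcfl arrays, and for 24 both Ctcfl arrays lay below both control arrays, as for 19% of all probe sets. Their differences were small, with a median of -0.1375, and a limma fit of the 35511 probe sets called none of the 26 and 0% of all probe sets. At an unadjusted p under 0.05, 1 of the 26 was lower, against 3.92% of all probe sets. With an intensity trend and robust variances limma called 0 of the 26, against 0.00563% of all probe sets called lower. The 26 are not independent, since they list overlapping sets of genes and 2 pairs of them had identical values on all 4 arrays.

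The 24 probe sets listed with at least 11 genes each had differences from -0.15 to -0.075. Medians were -0.0775 for the 2 H2A sets, -0.15 for the 7 H2B sets, -0.13 for the 10 H3 sets and -0.13 for the 5 H4 sets among them. Both H2A sets also list the H2A variant gene H2ax, the H3 gene H3c4 and H2af-ps2, and 1 of them H2aj, so they do not read H2A alone. All 7 H2B sets also list H4bc24, a symbol outside the rule. One of the H3 sets had 12.88 and 12.71 on the Ctcfl arrays, against 12.89 and 12.94 on the control arrays. Ctcfl replicate 1 lay next to the lower control array, and most of the gap came from Ctcfl replicate 2. In the 10 H3 sets the median deviation from the control mean was -0.0525 on Ctcfl replicate 1 and -0.205 on Ctcfl replicate 2. In the 7 H2B sets these were -0.11 and -0.175. Ctcfl replicate 2 was the lower of the Ctcfl arrays in 25 of the 26 sets, but in only 15 of the 27 genes with their own probe set.

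A probe set listed for only H4c11 and H4c17, singled out after its values were seen, stood apart from the class-wide ones. It had 6.48 and 6.22 on the Ctcfl arrays, against 6.95 and 6.96 on the control arrays. The difference was -0.605 (SE 0.12, 95% interval -0.93 to -0.28), or 1.52-fold lower, with an unadjusted p of 0.00582 and an adjusted p of 0.611 by limma. Another, listed for the linker histone gene H1f4 and for H2bc6, had 7.14 and 7.36 on the Ctcfl arrays, against 7.55 and 7.45 on the control arrays (difference -0.25, SE 0.12).

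**Figure D2:**
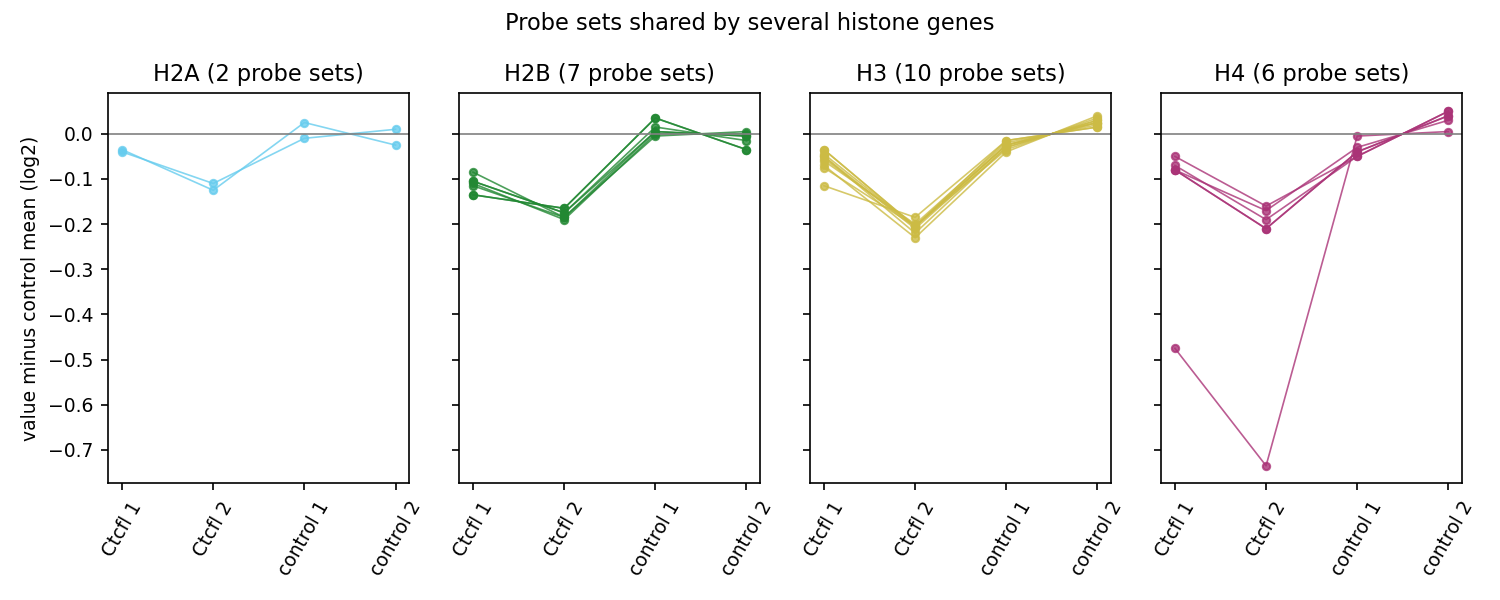
Each line is 1 probe set annotated to several histone genes, as its log2 value minus the mean of the control arrays, on Ctcfl replicates 1 and 2 and control replicates 1 and 2. The H3 sets lie at a median of -0.0525 on Ctcfl replicate 1 and -0.205 on Ctcfl replicate 2, and the low H4 line is the set of H4c11 and H4c17.

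The lower values were not limited to genes annotated to 1 chromosome. By RefSeq, 23 of the 27 genes lie on chromosome 13, where 21 had lower means, with a median of -0.19. The other 4, H2bc18, H2bc21, H3c15 and H4c14, lie on chromosome 3, where 3 had lower means, with a median of -0.2025. Probe sequences were not examined, so values of the chromosome 3 genes may include RNA of chromosome 13 genes. The 3 genes that older names place in smaller clusters fell outside the symbol rule and had differences of -0.105 for H2aw, -0.09 for H2bu2 and -0.04 for H4f16, with adjusted p-values from 0.728 to 0.900 by limma.

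Some replication-dependent histone genes are known to make polyadenylated RNA as well, and 3 of these had their own probe set. H1f2 had a difference of -0.54. H2bc4 had 4.31 and 4.13 on the Ctcfl arrays, against 4.27 and 4.67 on the control arrays, with overlap (-0.25, SE 0.15, and -0.05 without control replicate 2). H2bc21 had 4.53 and 4.37 on the Ctcfl arrays, against 4.25 and 4.32 on the control arrays (0.165, 95% interval -0.07 to 0.40), the only member with both Ctcfl arrays above. H2bc4, H2bc21 and H3c7 had means under 4.62, below which the dimmest genes were left out in 1 alternative, and without these 3 the count was 22 of 24 lower and the median stayed at -0.19. The testis forms H1f6, H2ac1 and H2bc1 had -0.01, -0.285 and -0.095.

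Promoters of 23 of the 27 genes were in the RefSeq table, with 250 bases before and 50 after the annotated start, and 58 of the 63 rule genes had 59 such windows. GGTCCG was in 10 of 11 H4 windows, against 8.25% of all 32851 windows. The H1 box was in 4 of 6 H1 windows, against 1.93% of all. The octamer was in 7 of 15 H2B windows and 6 of 17 H2A windows, against 1.74% of all. Windows of head-to-head H2A and H2B genes overlap, so the same match can count in both classes, as in the pair H2ac8 and H2bc8. CCAAT was in all windows of the H1, H2A, H2B and H3 classes and in 3 of 11 of H4, against 37.4% of all, and TATAAA in 40% to 72.7% of windows by class, against 13.6% of all. Matches were counted on either strand, whatever their distance from the start. In H4c6 and H4c9, for example, TATAAA began 250 and 137 bases before the start, and in H4c4 32 bases before it. A core of the CTCF motif, with any base allowed at some positions, had no match in any of the 59 histone windows, against 2.43% of all windows, which says only that these letters are not in these windows. A match is a run of letters and not a measured binding site.

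**Figure D3:**
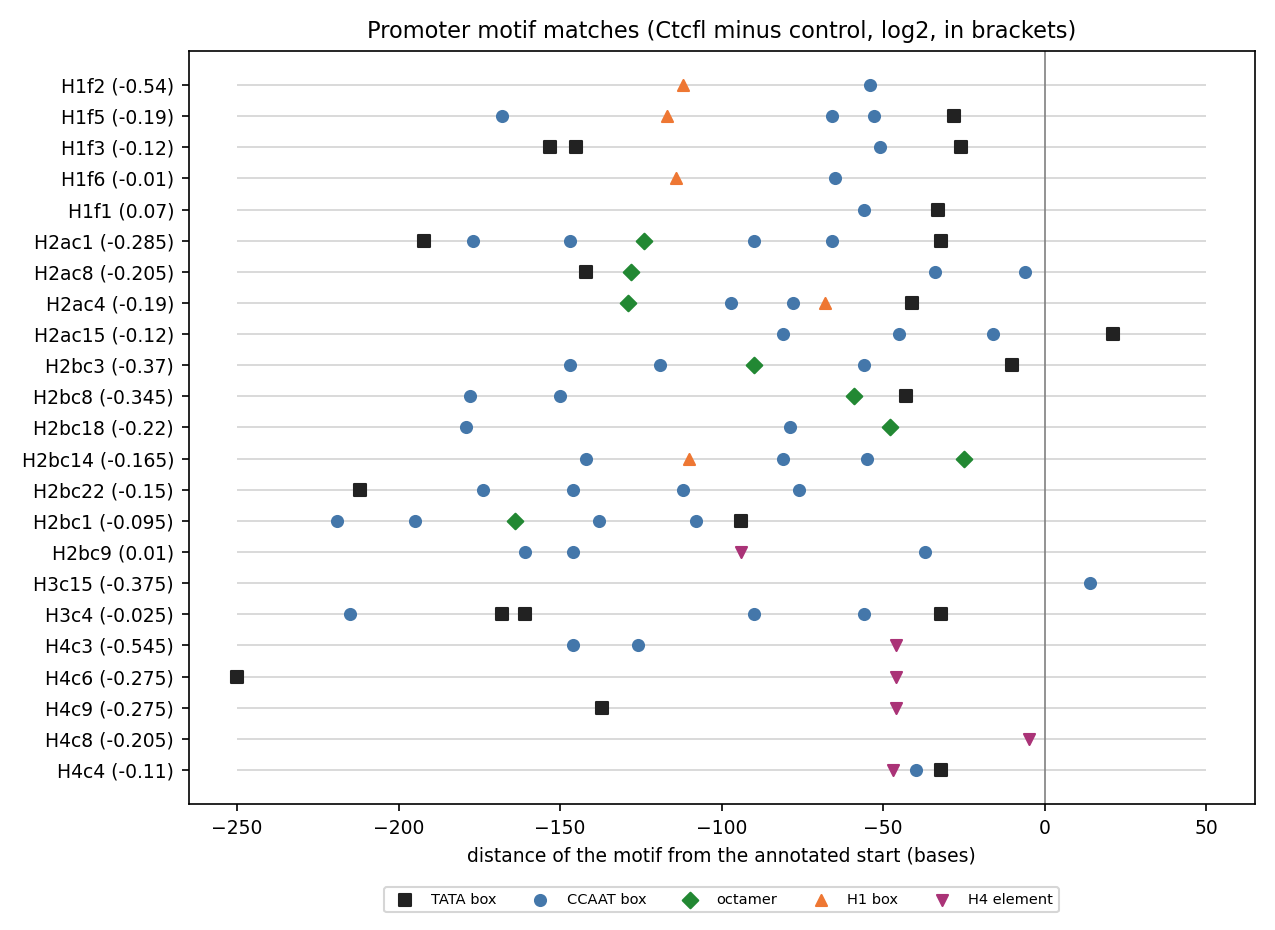
Positions of motif matches, as the distance of their first base from the annotated start, in the promoters of 23 histone genes, with each gene's log2 difference, Ctcfl minus control, in brackets. GGTCCG (the H4 element) begins 46 or 47 bases before the start in H4c3, H4c4, H4c6 and H4c9, and the H1 box lies 112 to 117 bases before it in 3 H1 genes.

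Genes that make, process and use histone RNA or histones had list medians nearer 0, and none of the lists had a member that passed across all genes. Of 17 factors of histone gene transcription, 12 had lower and 5 higher means, with a median of -0.075, where 48.6% of all genes had lower means. Both Ctcfl arrays lay below for 8 and above for 5, where 20.6% of all genes did each, and at an unadjusted p under 0.05 there were 2 lower and 2 higher. NPAT, the activator of histone genes at their nuclear bodies, is encoded by Npat, which had 8.05 and 8.15 on the Ctcfl arrays, against 8.21 and 8.05 on the control arrays (difference -0.03). Hinfp, the H4 promoter factor, had -0.12 with overlapping groups. E2f3, a factor of S-phase entry, had 6.81 and 6.97 on the Ctcfl arrays, against 7.28 and 7.24 on the control arrays (-0.37, SE 0.09, adjusted p = 0.330 by limma). Trrap, a scaffold of histone acetyltransferase complexes, had the opposite sign at 0.275 (SE 0.08, adjusted p = 0.379 by limma).

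Of 25 genes of histone RNA processing and decay, 19 had lower and 6 higher means, with a median of -0.05, where 48.6% of all genes had lower means. Both Ctcfl arrays lay below for 10 and above for 1, where 20.6% of all genes did each. Slbp, whose product binds the stem-loop, had 8.93 and 9.06 on the Ctcfl arrays, against 9.17 and 8.94 on the control arrays, which overlapped (difference -0.06, 95% interval -0.33 to 0.21). Lsm10 and Lsm11, which encode proteins of the U7 particle that cuts histone transcripts, had -0.07 and 0.125 with overlapping groups. Mif4gd, which encodes a partner of SLBP in translation, had 0.275 (SE 0.08, adjusted p = 0.383 by limma), and Ncbp2, a subunit of the cap-binding complex, had 0.185 (SE 0.11).

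S-phase replication genes also mostly had lower means, and the difference from the histone genes was not tested. Of 24 measured, 22 had lower means, against 48.6% of all genes, with a median of -0.0525. For 10 both Ctcfl arrays lay below, against 20.6% of all genes. At an unadjusted p under 0.05, 1 of the 24, Tk1, was lower, a share near the 5.32% of all genes. Tk1, thymidine kinase, had 9.27 and 9.28 on the Ctcfl arrays, against 9.57 and 9.51 on the control arrays (difference -0.265, SE 0.08, adjusted p = 0.387 by limma). Cdc6, which loads the replicative helicase, had -0.20 (SE 0.09), while Pcna, the sliding clamp, had -0.01. The part of these differences in the histone values was not tested.

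Histone chaperones had 9 lower and 14 higher means of 23, with a median of 0.035, where 48.6% of all genes had lower means. Chaf1b, a subunit of the chromatin assembly factor that deposits new H3 and H4, had -0.195 (SE 0.08), and Asf1b, which hands it H3 and H4, had 0.165 (SE 0.08). Of 17 other histone genes, which take in replacement variants, germ cell forms and the 3 genes outside the symbol rule, 10 had lower and 7 higher means, with a median of -0.04. Macroh2a1, which encodes a large H2A variant, had -0.225 (SE 0.08, adjusted p = 0.439 by limma), H1f7, a testis linker histone, had -0.19, and H2az1, the main gene of the variant H2A.Z, had 0.025.

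**Figure D4:**
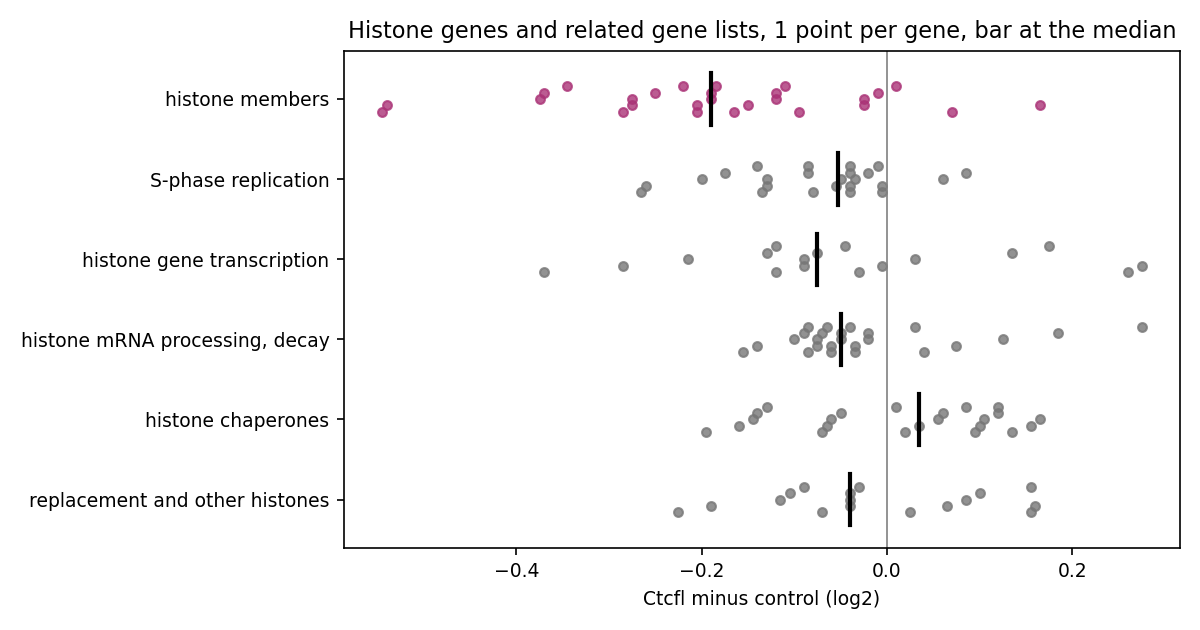
Log2 differences, Ctcfl minus control, of the 27 histone genes and 5 related gene lists, with 1 point per gene and a bar at the median. Medians are -0.19 for the histone genes, -0.0525 for S-phase replication, -0.075 for histone gene transcription, -0.05 for histone RNA processing and decay, 0.035 for histone chaperones and -0.04 for other histone genes.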

How the data were processed

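The authors deposited log2 RMA expression values made with Expression Console, per the labels; RMA corrects background, quantile-normalises arrays and summarises probes. The sources used here do not give the software version, its settings or detection calls. Of 35511 probe sets with values, 21789 had 1 symbol in the platform annotation of 2016, 1621 several, and 12101 are unnamed here. Gene identifiers matched RefSeq (GRCm38.p6) for 21698, and 0 symbols changed. The probe set with the highest mean stood for a gene; each histone gene had only 1.

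The comparison used limma 3.58.1 (R 4.3.3) over all 19938 genes (two-sided, Benjamini-Hochberg, threshold 0.05, 2 arrays per group). Shared histone probe sets were taken from a fit over all probe sets. The test was tried on simulated data. Probe sequences were not examined, and values of near-identical genes are uncertain. Members, lists and motifs were chosen with earlier results of these data known. Named by rule were Ctcfl and Ctcf, per class up to 4 members with the smallest p and the 2 brightest, and from each list the 2 genes with the smallest p. Not every gene so named is given with its adjusted p, and those left out were all above 0.05. Other list genes (Npat, Hinfp, Slbp, Lsm10, Lsm11, Pcna, H2az1) were named for their roles after their values were seen. Alternatives were other variance models, normalisations, filters, probe set means, a replicate block, arrays left out and other member sets. Figures used matplotlib 3.10.9 in Python 3.11.15.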

Additional observations from a re-analysis of the deposited data

How the results depend on the processing

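The number of genes called by limma, 9 of 19938, was 479 when limma used an intensity trend with robust variances. Leaving out the dimmest genes, with means under 4.62, gave 20. It was 0 with ordinary t statistics (1940 at an unadjusted p under 0.05), 0 over every probe set (2764) and 0 with any array left out (1329 to 1663). Fewer arrays leave fewer residual degrees of freedom, and a lone array in a group is assumed to vary like the others. Called histone genes were 0 of 27 in every setting but the intensity trend with robust variances, where they were 3. A fit with the replicate block called 0 genes and 0 histone genes (1468 and 7 at an unadjusted p under 0.05). Deviations of same-numbered arrays had a correlation of -0.1024 over all genes and of 0.1889 over the 27 histone genes. Crossing the numbers, a choice made after seeing the data, called 0 genes and 0 histone genes (2105 and 7 at that level). The labels do not say that the numbers pair the arrays. The median over the histone genes, -0.19, was -0.145 with the 26 shared probe sets added and -0.195 to -0.16 with an array left out. With arrays left out, class medians ran from -0.2 to -0.04 for H1, -0.2825 to -0.1125 for H2A, -0.18 to -0.13 for H2B, -0.255 to 0.09 for H3 and -0.2425 to -0.2125 for H4, so the order of the classes was not stable. The H2B median was -0.195 with median centring and the H3 median was -0.2 without the dimmest genes, which leaves 2 H3 genes. For the other changes the cause was not tested. The sign turned for H2bc9 with median centring (-0.02). With an array left out it also turned for H2bc9 (-0.005 to 0.025), H3c4 (-0.14 to 0.09), H3c7 (-0.255 to 0.205, with 0.12 without Ctcfl replicate 1) and H1f6 (-0.045 to 0.025, with 0.005 without Ctcfl replicate 1), of all 27. No detection calls were used, so signal over background was not measured.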
